A study of Homo sapiens with 16 samples.

Results

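A set of 10 fibrillar collagen genes was examined for regions that lost or gained H3K27ac when O-GlcNAc transferase (OGT) was inhibited. H3K27ac is the acetylation of histone H3 that marks active promoters and enhancers. The members, chosen by name, were COL1A1, COL1A2, COL3A1, COL5A1, COL5A2, COL5A3, COL11A1, COL11A2, COL24A1 and COL27A1, 10 of 20033 protein-coding genes. COL2A1, also a fibrillar collagen gene, was not among them. Every listed region with a base in the gene body or within 100 kb of the gene's 5′ end was taken. This gave 26 of the 7130 listed regions, 15 lost and 11 gained. The cells were LX-2, a long-established line of human hepatic stellate cells that behave as myofibroblasts, and so represent 1 line rather than several donors. Control cells received the vehicle DMSO and OGTi cells received 50 µM OSMI-1, an OGT inhibitor, both for 24 h. H3K27ac was measured by ChIP-seq in 4 replicates of each arm, and the 8 other samples, input DNA and column purified chromatin, were not analysed here.

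The values used were the positions of 3507 lost and 3623 gained regions that the authors derived from all 8 H3K27ac libraries. The lists hold neither signal, fold change, p-value nor replicate value, so the size of a change, its spread between replicates and the read depth behind it are unknown for every region below, and a gene with no listed region may be unchanged or may carry no H3K27ac at all. No test between conditions could be made, and the cell type could not be checked against marker genes. Counts over the members are therefore descriptions, given beside the same counts over all protein-coding genes.

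Fibrillar collagens are the long triple-helical proteins that assemble into the banded fibrils of connective tissue. COL1A1 and COL1A2 encode the chains of type I collagen, the main fibril protein of liver scar, and COL3A1 encodes the chain of type III collagen, which is laid down with it. Types V and XI are minor collagens that nucleate fibrils and limit their width, with chains encoded by COL5A1, COL5A2, COL5A3, COL11A1 and COL11A2. COL24A1 and COL27A1 encode chains of the more distant types XXIV and XXVII, the latter a cartilage collagen. Activated stellate cells are the main source of type I and type III collagen in injured liver.

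The sequences around selected matches are given first, and not every match in the regions is shown. TEAD factors, the DNA-binding partners of YAP1, bind ACATTCCA and its variants ACATTCCT, GCATTCCA and GCATTCCT, and AP-1, the Jun and Fos dimers, binds TGACTCA or TGAGTCA. Both strands were searched, and all sequences below are from the plus strand of hg38. The regions at the 5′ ends of the type I collagen genes held 3 TEAD matches, 1 upstream of COL1A1 and 2 upstream of COL1A2. These are all the TEAD matches in the promoter regions, which have a base within 2500 bp of a member's 5′ end, and are shown with 10 bases on either side and with the match in capitals.
COL1A1, chr17:50204301-50204328, 2.68 kb upstream: tggcttcttgTGGAATGTaagactttgt
COL1A2, chr7:94392263-94392290, 2.62 kb upstream: atcagtttccAGGAATGCttttcaagtt
COL1A2, chr7:94393522-94393549, 1.36 kb upstream: acctagggccTGGAATGCcatcccaaga

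An AP-1 match lay between the COL1A2 TEAD matches, and another lay in the lost region inside COL5A3. They are shown in the same way, and were added after the regions had been seen.
COL1A2, chr7:94392608-94392634, 2.28 kb upstream: attaccacccTGAGTCAttttgctcag
COL5A3, chr19:10008549-10008575, 1.95 kb downstream of the 5′ end: aggcggggacTGAGTCAgggcatggct

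The gained region inside COL1A1 held no TEAD match but a pair of AP-1 matches whose first bases were 11 bp apart. The stretch of 58 bases that holds both is shown with the matches in capitals. Of the 4 lost regions upstream, 2 also held no TEAD match and 1 held an AP-1 match.
COL1A1, chr17:50196971-50197028, gained: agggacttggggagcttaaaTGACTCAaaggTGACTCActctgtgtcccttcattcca

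The 300 bases with the most TEAD and AP-1 matches in the lost gene-body regions of COL5A1 lay in intron 1 and held 3, in capitals, in the order TEAD, AP-1 and TEAD. The content of interspersed repeats was not analysed here.
COL5A1, chr9:134670072-134670371, lost: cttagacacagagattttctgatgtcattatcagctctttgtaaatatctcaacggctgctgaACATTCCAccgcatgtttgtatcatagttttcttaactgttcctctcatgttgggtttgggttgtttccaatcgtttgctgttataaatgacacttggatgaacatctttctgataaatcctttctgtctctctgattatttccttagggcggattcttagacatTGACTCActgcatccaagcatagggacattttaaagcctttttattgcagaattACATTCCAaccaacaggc

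The gained regions of COL5A2 held 3 TEAD matches and 1 AP-1 match, and those of COL3A1 held 1 AP-1 match and no TEAD match. They show that the same letters occurred on the gained side.
COL5A2, chr2:189126646-189126673, TEAD: ataataaaatGCATTCCAaaccaaggga
COL5A2, chr2:189126812-189126839, TEAD: ctgcactgcaTGGAATGCtaaggccatg
COL5A2, chr2:189132234-189132261, TEAD: taccacatcaACATTCCTaaataacagt
COL5A2, chr2:189105692-189105718, AP-1: ttctgggcttTGAGTCAgaattcataa
COL3A1, chr2:188984835-188984861, AP-1: tatgtgtctgTGACTCAggatccgttc

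Of the members with a listed region near the 5′ end, COL5A3 was found in the RefSeq promoter table (build GRCh38.p14), which matched 6 of the 10 genes. Its promoter, from 250 bases before to 50 after the start, ends 1544 bp short of the lost region. Besides TEAD and AP-1, the letters searched were CCAAT, bound by NF-Y, GGGCGG, bound by SP and KLF factors, TGTGGT or TGCGGT, bound by RUNX, TGATGCAA, bound by ATF4 with C/EBP, and the CArG box of SRF. The promoter held 1 CCAAT and 1 GGGCGG, in capitals, which were present in 34.6% and 45% of the 35116 promoters of the table. TEAD and AP-1 letters, in 4.15% and 4.95% of all promoters, and RUNX, SRF and ATF4-C/EBP letters, in 19.6%, 1.29% and 0.866%, were not in this window.
COL5A3 promoter, minus strand, chr19:10010455-10010754: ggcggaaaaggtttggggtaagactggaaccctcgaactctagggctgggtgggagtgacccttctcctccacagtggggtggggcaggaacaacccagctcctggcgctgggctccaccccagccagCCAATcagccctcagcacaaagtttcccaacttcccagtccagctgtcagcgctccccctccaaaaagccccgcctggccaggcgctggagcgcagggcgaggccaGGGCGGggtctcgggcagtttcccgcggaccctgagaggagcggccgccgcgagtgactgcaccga

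Of the 10 genes, 4 had lost regions only (COL1A2, COL5A1, COL5A3 and COL11A2), 2 had gained regions only (COL3A1 and COL5A2), COL1A1 had both kinds, and 3 had neither (COL11A1, COL24A1 and COL27A1). Over all protein-coding genes, 14.4% had lost regions only, 23.3% gained regions only, 7.21% both and 55.1% neither. The members' shares were 40% lost only, 20% gained only, 10% both and 30% neither, in 10 genes of which 1 is 10%. Long genes have long windows, and 50% of the members but 11.1% of all protein-coding genes exceeded 150 kb. Per 100 kb of window, the members had 0.553 lost and 0.405 gained regions on average, and all protein-coding genes 0.167 and 0.214. The split of the members by direction is drawn in the map of regions by gene.

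**Figure D1:**
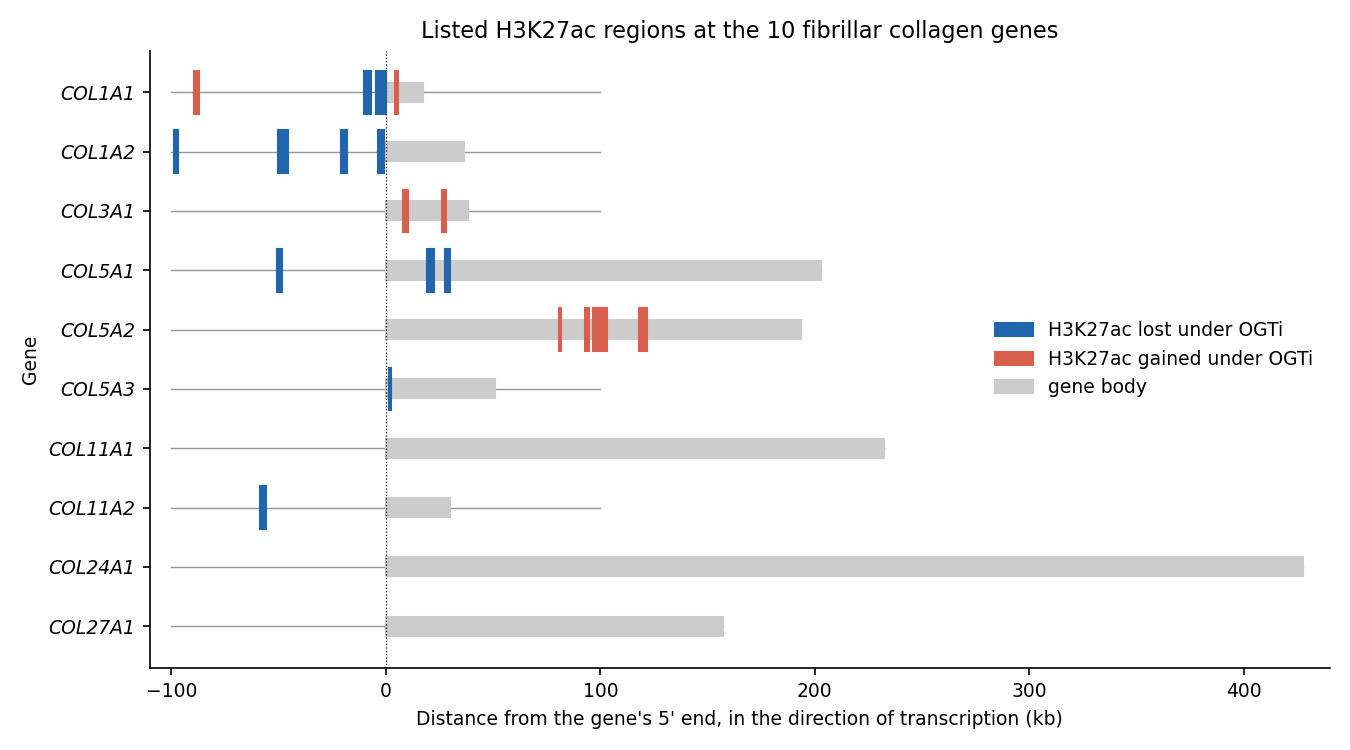
Listed H3K27ac regions at the 10 genes, by distance in kb from the gene's 5′ end in the direction of transcription (dotted line at 0, grey bars the gene bodies, thin lines the rest of the window). Lost regions (blue) lie upstream of COL1A1 and COL1A2 and at the start of COL5A3, while gained regions (red) lie inside COL3A1, COL5A2 and COL1A1 and 88.2 kb upstream of COL1A1, and COL5A1 has 3 lost regions inside the gene.

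Lost and gained regions also differed in where they lay. Of the 15 lost regions, 4 had a base within 2500 bp of the 5′ end and are called promoter regions here, 3 lay in a gene body and 8 in the upstream flank. Of the 11 gained regions, none was a promoter region, 10 lay in a gene body and 1 in the upstream flank. Of those 10, 7 lay in COL5A2, in 4 blocks once abutting regions were joined. The classes of region were not counted over the full lists. A lost promoter region was found at 3 of 10 genes (COL1A1, COL1A2 and COL5A3) against 1.96% of all protein-coding genes, and a gained one at 0 of 10 against 6.39%. A gained region in the gene body was found at 3 of 10 genes (COL1A1, COL3A1 and COL5A2) against 5.51%, and a lost one at 1 of 10 (COL5A1) against 5.15%. None of the 26 regions covered a member's 5′ end itself. Among genes with a lost promoter region, a lost region covered the 5′ end at 0 of 3 members, beside 222 of 392 protein-coding genes (56.6%). With 3 members this is not called different.

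At COL1A1 (ENSG00000108821, chr17:50184101-50201632, minus strand), 4 lost regions lay directly upstream. The first began 122 bp before the 5′ end and reached to 2121 bp, and the second abutted it and ended at 4715 bp. After a gap of 2295 bp a second abutting pair ran from 7011 to 10296 bp upstream. The lost stretch thus covered 7.88 kb of 10.2 kb, and all 4 regions had their centres within a long non-coding RNA gene on the opposite strand (ENSG00000249406).

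COL1A1 was the member with both directions. Its gained gene-body region, chr17:50196015-50197510, spanned 1496 bp from 4122 to 5617 bp downstream of the 5′ end and overlapped exons 10 to 15 of the canonical transcript, with its centre in intron 11. Its centre was 5.99 kb from that of the nearest lost region. Among pairs of successive listed regions of the whole series whose centres were over 5 and up to 10 kb apart, 36 of 370 (9.73%) differed in direction, and among pairs up to 5 kb apart 8 of 1232 (0.649%). A lost promoter region together with a gained gene-body region was found at 21 of 20033 protein-coding genes, COL1A1 included. The combination counted is that of COL1A1 itself. A second gained region of COL1A1 lay 88.2 kb upstream, where the 5′ end of TMEM92 was nearer, at 18.4 kb.

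COL1A2 (ENSG00000164692, chr7:94394895-94431227, plus strand), which encodes the partner chain, had 5 lost regions and no gained one. The nearest, chr7:94391433-94393966, lay 929 to 3462 bp upstream and was a promoter region. The others were centred 19.5, 47, 49.4 and 97.8 kb upstream, those at 47 and 49.4 kb abutting each other. All 5 lay upstream, with their centres within the antisense non-coding gene ENSG00000285090, and none in the gene body. They covered 12.5 kb, and COL1A2 was the nearest protein-coding 5′ end for each. At least 5 lost regions and no gained region in the window were found at 147 of 20033 protein-coding genes (0.734%), and at least 5 lost regions at the promoter or upstream at 52 (0.26%). Both cut-offs are the counts of COL1A2 itself. The nearest gained region lay 210 kb from the COL1A2 5′ end. The type I chain genes therefore shared lost regions upstream, starting 122 and 929 bp before the 5′ end, and differed in the gained region, which was found at COL1A1.

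**Figure D2:**
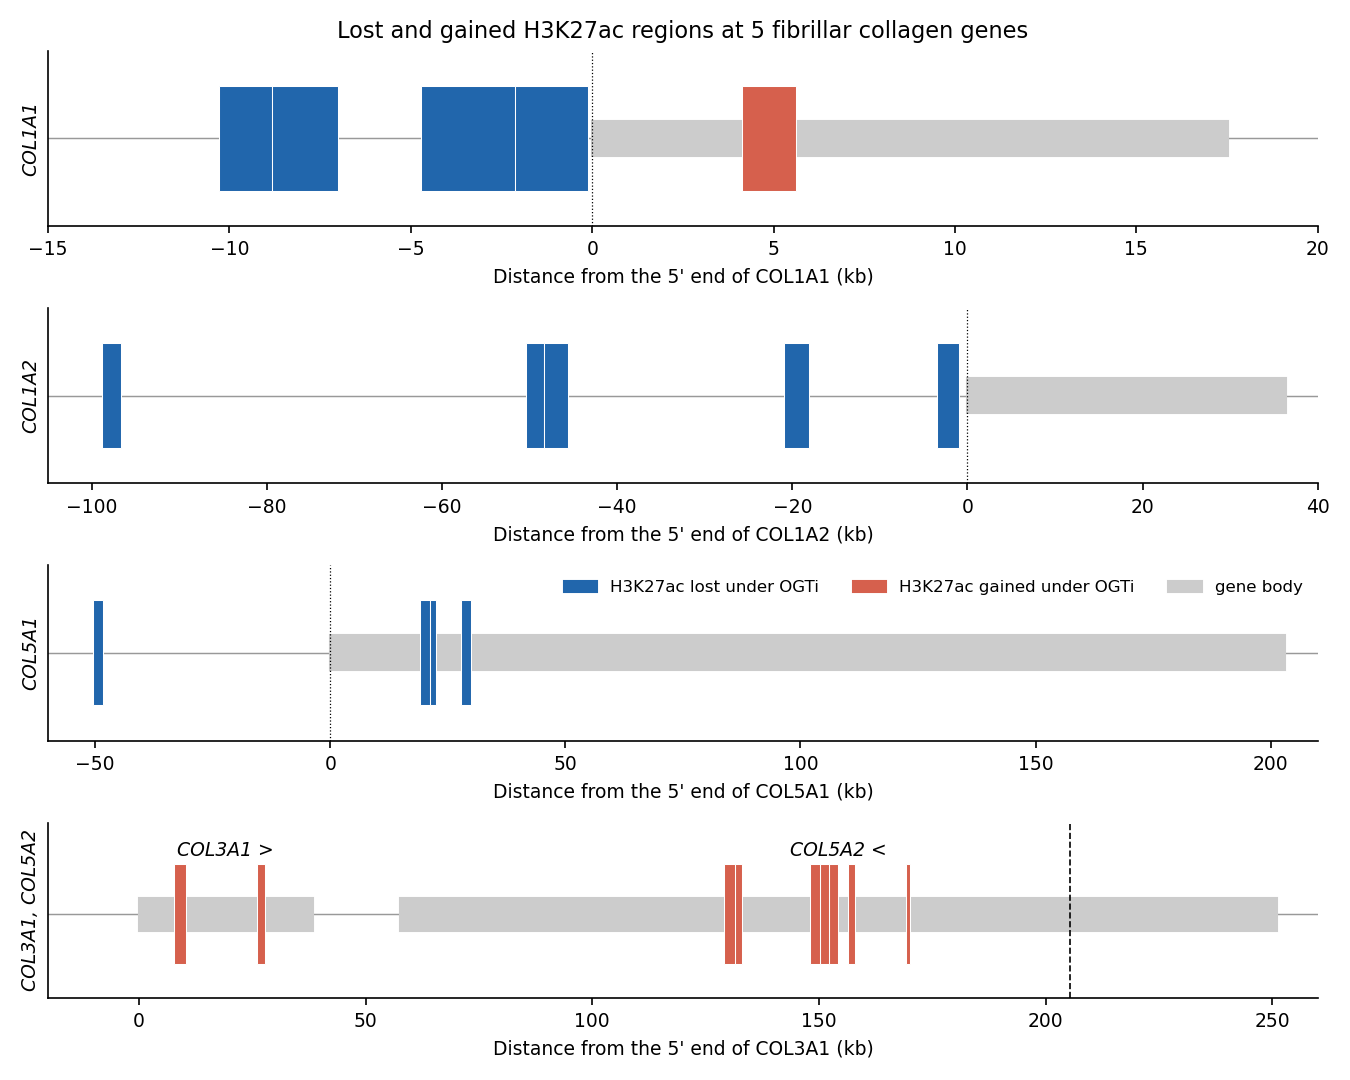
Lost (blue) and gained (red) regions at COL1A1, COL1A2, COL5A1 and the neighbouring genes COL3A1 and COL5A2, by distance in kb from the 5′ end named under each panel (grey, gene bodies; dashed line, start of the canonical COL5A2 transcript; arrowheads, direction of transcription; the gained region 88.2 kb upstream of COL1A1 lies outside its panel). The lost blocks upstream of COL1A1 stand 4.24 kb from the gained region inside the gene, and the 9 gained regions of COL3A1 and COL5A2 spread over 162 kb with no lost region among them.

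COL3A1 (ENSG00000168542, chr2:188974373-189012746, plus strand) had 2 gained regions, both in the gene body, and no lost one. The first, chr2:188982227-188984869, was 2643 bp wide, centred 9.18 kb from the 5′ end in intron 1, and reached into exon 2. The second, chr2:189000471-189002210, was 1740 bp wide, centred 27 kb from the 5′ end in intron 32, and overlapped exons 33 and 34. The nearest lost region was 165 kb from the 5′ end, outside the window. The type III chain gene thus had the opposite direction from COL1A2, its gained regions lying inside the gene and not upstream of it.

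The chains of type V collagen were divided by direction in the 100 kb window. COL5A2 (ENSG00000204262, chr2:189031898-189225312, minus strand), the neighbour of COL3A1 with its 3′ end 19.2 kb away, had 7 gained regions and no lost one. They lay between chr2:189103345 and chr2:189144540, a stretch of 41.2 kb of which they covered 13.2 kb, in 4 blocks once abutting regions were joined. In the canonical transcript, which starts 45.6 kb inside the gene's outermost 5′ end, 5 were centred in intron 1 and 2 in intron 2, and 1 overlapped an exon, exon 3. They lay 35.2 to 76.4 kb downstream of that transcript's start. At least 7 gained regions in the gene body with no lost region in the window were found at 11 of 20033 protein-coding genes (0.0549%). The cut-off of 7 is the count of COL5A2 itself, a gene of 193.4 kb, and genes of like length were not compared. Counted from the 5′ end, the second and the third of the 7 regions were separated by a gap of 2000 bp, as wide as the third region itself. No region was listed there in either direction.

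COL5A1 (ENSG00000130635, chr9:134641803-134844843, plus strand), whose chain assembles with that of COL5A2, had 4 lost regions and no gained one. A region centred 49.5 kb upstream was followed by 3 in intron 1, an abutting pair centred 20.2 and 21.8 kb downstream of the 5′ end and another at 28.9 kb. None overlapped an exon. A window of 200 kb instead of 100 kb added 3 lost regions upstream and no gained one. At least 4 lost regions were found in the window of 398 of 20033 protein-coding genes (1.99%). The cut-off of 4 is the count of COL5A1 itself, and genes of like length were not compared.

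COL5A3 (ENSG00000080573, chr19:9959561-10010504, minus strand), which encodes another type V chain, had 1 lost region of 671 bp, chr19:10008240-10008910, the narrowest of the 26. It lay 1594 to 2264 bp downstream of the 5′ end, within intron 1, and was a promoter region by the window used. Within 100 kb, COL5A1 and COL5A3 thus had lost regions and COL5A2 gained ones. In the 200 kb window COL5A2 had 2 lost regions beside its 7 gained ones, the nearest 150 kb from its 5′ end, and COL5A3 had 1 gained region, 109 kb from its 5′ end, so that COL5A1 alone of the type V genes kept a single direction there.

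Among the type XI genes, COL11A2 (ENSG00000204248, chr6:33162681-33192499, minus strand) had 1 lost region, chr6:33248465-33250995. Its centre lay 57.2 kb upstream, inside the non-coding gene HCG25. The 5′ end of VPS52 was nearer, at 22.3 kb. COL11A1 had no listed region in its window, and neither did COL24A1 or COL27A1, and extending the window to 200 kb added none. The nearest listed region to the COL11A1 5′ end was a gained one at 1850 kb, and to those of COL24A1 and COL27A1 gained ones at 448 and 225 kb. These 3 genes were long, at 232.4, 427.7 and 157 kb, and were without a region in windows of 332.4, 527.7 and 257 kb.

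The members were set beside 33 other collagen genes (network, beaded, fibril-associated and transmembrane collagens) and 31 genes of collagen modification, secretion, processing and crosslinking. Lost regions only were found at 9 of the 33 other collagens (27.3%), with COL4A1, COL4A2, COL12A1 and COL18A1 among them, and at 10 of the 31 processing genes (32.3%), with SERPINH1, the collagen chaperone, P4HA2, a prolyl hydroxylase subunit, and BMP1, the procollagen C-proteinase, among them. Gained regions only were found at 5 (15.2%) and 7 (22.6%) genes, with LOX, the lysyl oxidase that crosslinks fibrils, among the latter. Both kinds were found at 3 genes of each list (9.09% and 9.68%), and neither at 16 (48.5%) and 11 (35.5%). Per 100 kb of window, the other collagens had 0.411 lost and 0.173 gained regions, and the processing genes 0.497 and 0.219. The members had 0.553 and 0.405, so a lost density above that of all protein-coding genes (0.167) was shared by all 3 lists.

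The lists were also compared by the place of the regions. A lost promoter region was found at 2 of the 33 other collagens (6.06%, COL7A1 and COL12A1) and at 3 of the 31 processing genes (9.68%, PCOLCE, LOXL1 and LOXL4), against 3 of the 10 members. No gene of the 3 lists had a gained promoter region. A gained gene-body region was found at 2 of 33 (6.06%, COL4A6 and COL8A1) and 2 of 31 (6.45%, COLGALT1 and LOXL2), against 3 of 10. A lost gene-body region went the other way, at 6 of 33 (18.2%) and 6 of 31 (19.4%), against 1 of 10. With 10 members these shares were not tested and are not called different.

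**Figure D3:**
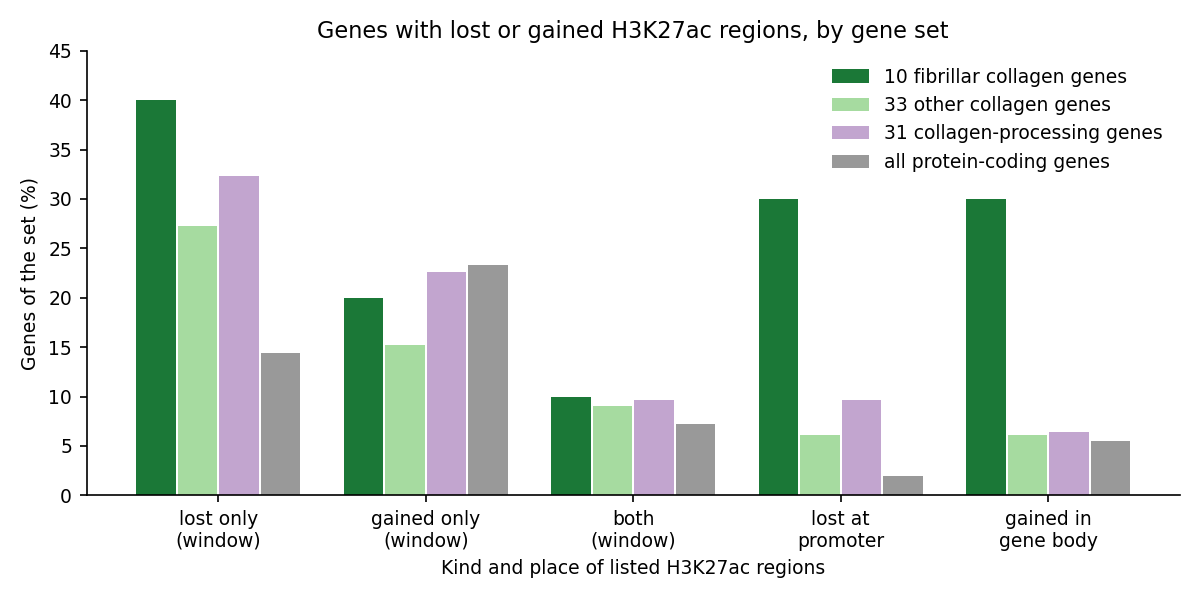
Percent of genes of each set (bars) with lost regions only, gained regions only or both kinds in the window, with a lost promoter region, or with a gained gene-body region. The 10 members reach 30% for the last 2 kinds, where all protein-coding genes stand at 1.96% and 5.51%.

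The base composition of the regions followed the loci. GC content was 55.6% to 57.3% in the 4 lost regions of COL1A1 and 37.5% to 43.4% in the 5 of COL1A2, so that lost regions of the partner chains did not overlap in GC content. It was 49.4% to 58% at COL5A1, 53.9% at COL5A3 and 57% at COL11A2. The gained gene-body region of COL1A1, at 55.4%, was close to the lost regions upstream of it. The 9 gained regions of COL3A1 and COL5A2 were AT-rich, at 31.6% and 32.9% in COL3A1 and 27% to 37.4% in COL5A2. All 9 lay in the lowest part of the gained list, with at most 12% of its 3623 regions lower, and a single region of the list had a lower GC content than the COL5A2 region at 27%.

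The sequence around the genes differed in a like manner. The windows of COL3A1 and COL5A2 had a GC content of 35.3% and 35.4%, that of COL1A2 38.1% and those of COL1A1 and COL5A1 52.4% and 54.4%. Against its own window, GC content was higher in 11 of 15 lost regions, and in 2 of the 9 gained regions of COL3A1 and COL5A2. The gained regions of COL1A1 had 55.4% and 48.8%, above and below their window. The same comparison was not made over the whole lists. The medians over the 15 lost and 11 gained regions, 53.9% and 32.9%, stood beside 46.8% and 46.1% over the whole lists. The median CpG observed/expected ratio was 0.227 in the lost regions, beside 0.202 over the lost list, and 0.145 in the gained regions, beside 0.247 over the gained list. It was highest, at 0.529, in the COL11A2 region.

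**Figure D4:**
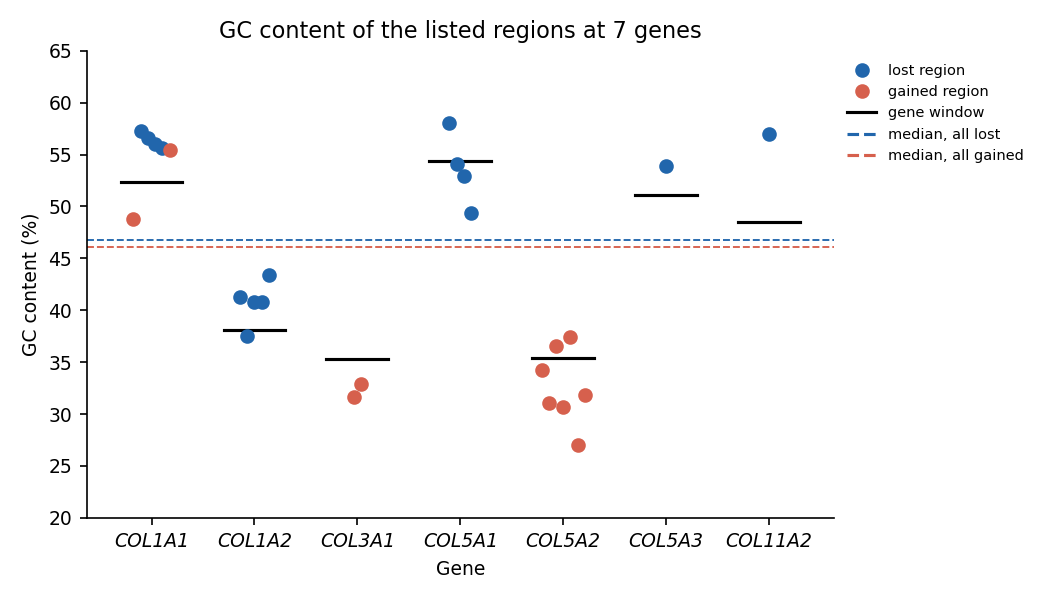
GC content in percent of each listed region (points, blue lost and red gained) at the 7 genes with a region, beside that of the gene's whole window (black bars) and the medians of the full lists (dashed lines). The gained regions of COL3A1 and COL5A2 lie between 27% and 37.4%, below both list medians.

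A TEAD match was found in 7 of the 15 lost regions (46.7%, Wilson 95% interval 24.8% to 69.9%) and in 3 of the 11 gained regions (27.3%, 9.75% to 56.6%), beside 42.9% of all lost and 27.5% of all gained regions. The intervals overlap widely and cover counting error only, and abutting regions are not independent. The members' shares were thus near those of their lists. The 11 matches on the lost side lay at COL1A2 (5 in 3 of 5 regions), COL5A1 (3, all in the intronic region at 28.9 kb), COL1A1 (2 in 2 of 4 regions) and COL11A2 (1). The lost region closest to the COL1A1 5′ end held none, and neither did the COL5A3 region.

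AP-1 letters were found in 6 of 15 lost and 4 of 11 gained regions (40% and 36.4%, beside 42.6% and 39.6% of the lists). The COL5A1 region at 28.9 kb held 4 of the 9 AP-1 matches of the lost regions, with 6 matches to the RUNX letters TGTGGT or TGCGGT and 1 to TGATGCAA, the ATF4-C/EBP letters, and was the region with the most TEAD and AP-1 matches of the 26. TGATGCAA was found in 3 of 11 gained regions, 1 at COL1A1 and 2 at COL5A2, and in 2 of 15 lost ones, beside 10.1% and 4.36% of the lists. The CArG box of SRF, the factor of contractile genes, was found in 4 of 15 lost regions, 3 of them at COL1A2, beside 14.7% of the lost list. It was found in 4 of 11 gained regions, 3 at COL5A2 and 1 at COL3A1, beside 7.76% of the gained list. The box holds a run of A or T, and those 4 gained regions were AT-rich. Regions of like GC content were not compared. RUNX letters were found in 12 of 15 lost and 5 of 11 gained regions (80% and 45.5%, beside 74.2% and 68.4% of the lists), and CCAAT in 14 of 15 and 9 of 11 (93.3% and 81.8%, beside 83.8% and 80.6%). GGGCGG was found in 8 of 15 lost and 0 of 11 gained regions, beside 33.9% and 42.9% of the lists, and 9 of those 11 gained regions were the AT-rich ones of COL3A1 and COL5A2. A match of letters is a description of the sequence and not a bound site.

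**Figure D5:**
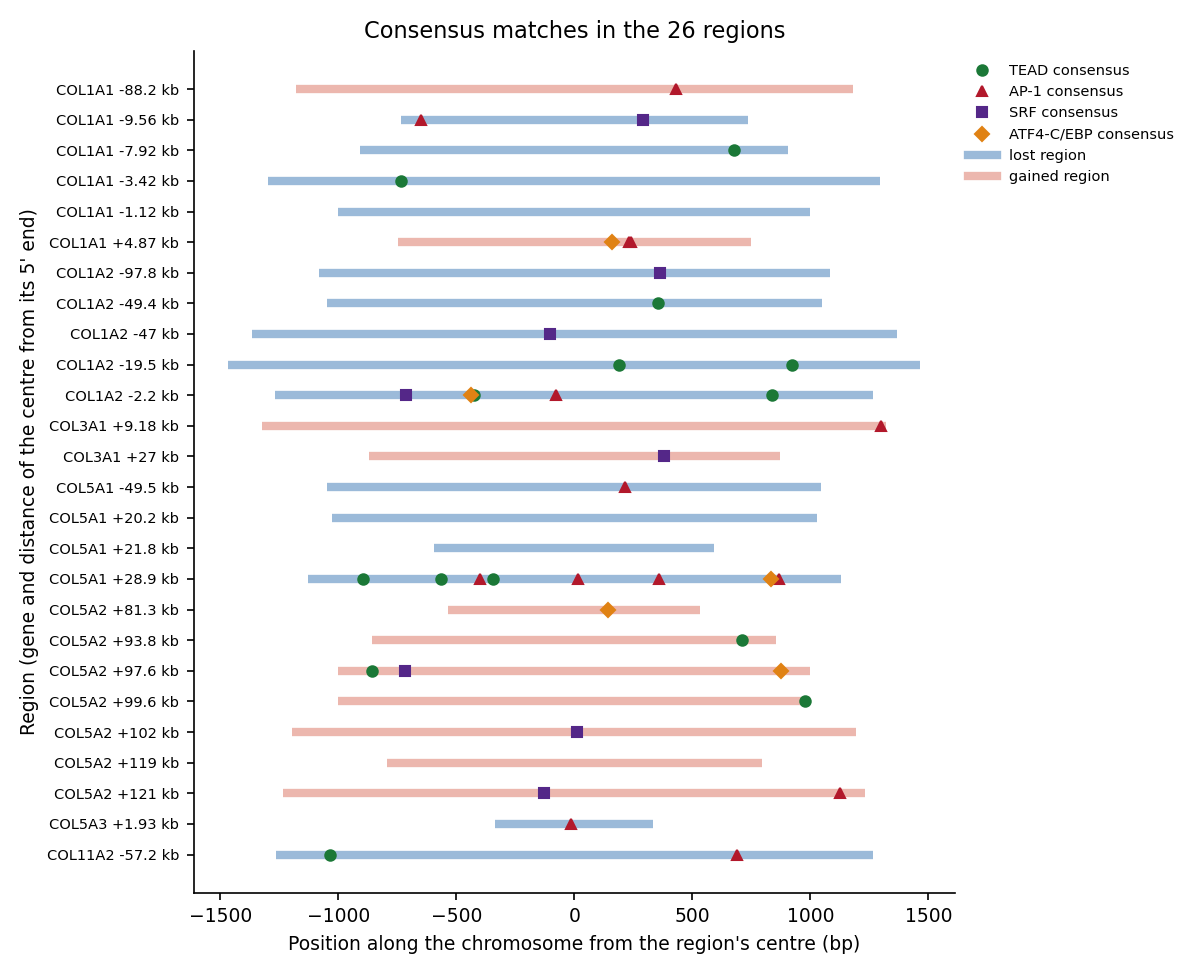
Positions, in bp from the region's centre along the chromosome, of TEAD, AP-1, SRF and ATF4-C/EBP matches in the 26 regions (bars to scale, blue lost and red gained), each named by its gene and the distance of its centre from the 5′ end. The COL5A1 region at +28.9 kb holds 3 TEAD and 4 AP-1 matches, and the pair of AP-1 matches in the COL1A1 region at +4.87 kb falls on nearly the same spot.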

How the data were processed

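H3K27ac ChIP-seq of LX-2 cells was analysed from the positions of changed regions. Per the study's methods, Chromap was used by the authors to map reads to hg38, peaks of each library over input DNA came from MACS2 (2.1.1.20160309, per the submitters' processing notes), and MAnorm2 split the peaks into bins and compared the arms over all 8 libraries. Each arm had 2 ChIP inputs, 1 of them labelled as shared by several replicates. Because of the bins, 1 broad acetylated domain can give several abutting regions. The 2 deposited lists hold 3 columns (chromosome, start and end, in base pairs) and no other measured value. Their names state an adjusted p of 0.15, the methods text a stricter one.

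Starts were converted to count from 1. Genes came from GENCODE release 44 and sequences from hg38, read with pysam 0.24.0 in Python 3.11.15. A region was a promoter region with any base within 2500 bp of the gene's 5′ end, otherwise a gene-body region if its centre lay in the gene, otherwise a flanking region. A window match is no evidence that a region acts on the gene. Palindromic matches were counted once. Assignment was tested on simulated regions. The members and lists were chosen with earlier results of these data known. The named genes are the members, genes nearest to their outlying regions, and examples from the comparison lists. Alternatives were other windows, joined regions, other promoter definitions and other TEAD searches. The labels call the replicates biological.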

Additional observations from a re-analysis of the deposited data

How the results depend on the processing

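Of 54 values under an alternative, 45 stayed within 1.5 times the reported count or inside the interval of the reported share, among them those with membership by region centre, with outlying regions kept only at the nearest 5′ end, and with the canonical transcript as the gene (an alternative chosen after seeing the data). The other 9 moved. With a window of 200 kb, genes with gained regions only fell from 2 to 0 and genes with both kinds rose from 1 to 4 (COL1A1, COL3A1, COL5A2 and COL5A3). The split of genes by direction thus depended on the window. With the gene body and 2500 bp around the 5′ end only, 7 lost regions were left. Lost promoter regions numbered 2 within 1000 bp of the 5′ end, and gained promoter regions 1 within 5000 bp and 2 with the 5′ ends of all transcripts, at COL1A1 and COL3A1. With the core CATTCC, 93.3% of lost and 72.7% of gained regions held a TEAD match. Within the central 1000 bp, 26.7% of lost and 0% of gained regions did, beside 46.7% and 27.3% as reported. The lost share was counted as unmoved because it lay inside the reported interval, 24.8% to 69.9%. No paired analysis was possible because the regions come as positions alone, with nothing given per library. Leaving out a replicate and a stricter threshold could therefore not be run either, and the depth that limits each call is unknown.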

Other observations

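The combination found at COL1A1, a lost promoter region and a gained gene-body region, was also found at 20 other protein-coding genes. Among them were FBN1, which encodes the microfibril protein fibrillin-1, the integrin chain genes ITGA5 and ITGB1, whose product binds fibronectin, MYLK, which encodes myosin light chain kinase, and TEAD1, which encodes a TEAD factor. The others included CIRBP, IL7R, TPCN1, UBTF and WDR81. All these genes were named after the list had been seen, and no test was made of it.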
